A study of Mus musculus with 20 samples.

Results

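Lymphomas that arose in mice lacking Id2 and Id3 in T cells were compared with follicular helper T (TFH) cells sorted from the spleens of wild-type mice, a pair for which the deposited table gives group averages and no test. The members are the genes whose larger average of the pair was at least 10 normalized counts, and they number 14492 of the 39179 genes in the table. For each gene the ratio of the lymphoma to the TFH average was taken on the log2 scale with 1 normalized count added to both, so that a log2 ratio of 1 is a 2-fold difference and the change of a low gene is understated. At the edge of this rule, 2210417A02Rik was kept with a larger average of 10.0 and Ranbp17 was left out at 9.998. A gene with an average under 10 in either group was kept only through the other group.

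The 2 groups hold 9 of the 20 libraries of the series, 3 of TFH cells and 6 of lymphomas, all from mice on a C57BL/6 background. The TFH cells were splenic CD4+TCRb+CD44highCXCR5+ cells of wild-type mice that, in the study's account, had been immunized with sheep red blood cells, and the sources used here do not state their age. The lymphoma libraries carry the genotype label Id2_Id3_dKO, read here as conditional deletion of Id2 and Id3. The study worked with aged mice and used IL7R-Cre, CD4-Cre and dLck-Cre lines. It used IL7R-Cre to delete both genes in common lymphoid progenitors, which is before the T lineage. The labels do not name the driver of each lymphoma. By label 4 lymphomas came from lymph node, 1 from spleen and 1 from thymus, and 4 were sorted as CD3+TCRb+CD4+ and 2 as CD3+TCRb+CD8+ cells. Averages of sorted CD4+ single-positive thymocytes (CD4SP cells) were set beside the pair where they help to place a gene, and these come from 5 control libraries, 3 libraries labelled as lacking Id3 and 3 Id2-/-Id3-/- libraries. Genotype, malignancy, sorting and immunization differ between the lymphomas and the TFH cells, as does the tissue for 5 of the 6 lymphomas, and these cannot be told apart. Whether the groups differ in age cannot be read from the sources. Every value is an average over the libraries of a group, so no error, test or depth per library can be given, and 1 lymphoma with a very high level can carry the average of all 6.

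TFH cells are the CD4 T cells that enter B cell follicles through the chemokine receptor CXCR5, depend on the transcription factors BCL6 and MAF, and drive germinal centers with CD40 ligand and IL-21. Id2 and Id3 are small proteins that bind E proteins such as E2A and HEB and keep them off DNA, and E proteins recognize short sequences called E-boxes. The study had described cells with TFH features in the thymus of mice without Id2 and Id3, so the comparison asks how far the tumors of these mice resemble or differ from TFH cells of an immune response.

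The Id2 gene (mm10, chr12:25093799-25097140) had an average of 1628 normalized counts in TFH cells and 30.5 in lymphomas, a log2 ratio of -5.69. For Id3 (chr4:136143497-136145755) the averages were 1777 and 857, a log2 ratio of -1.05, and reads outside the deleted part of either gene would still count here. Both groups held the RNA of alpha-beta T cells. Of 15 alpha-beta T cell markers, 13 differed by under 2-fold, among them the receptor constant gene Trbc2 at 16904 and 19841 and the CD3 chain gene Cd3d at 6561 and 8224. The exceptions were Cd4, at 20145 in TFH cells and 4110.2 in lymphomas, and the other beta constant gene, Trbc1, at 7046 and 1502. Cd8a averaged 26.1 and 1388, beside the sorting of 2 of the 6 lymphomas as CD8+ cells. Cxcr5, whose protein was used for the TFH sort, averaged 9568 in TFH cells and 44.6 in control CD4SP cells. The 15 alpha-beta T cell markers summed to 148925 in TFH cells and 107853 in lymphomas. All genes of the table summed to 13386015 in TFH cells and 15497262 in lymphomas.

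Of the 14492 genes, 2635 (18.2%) were at least 2-fold higher in lymphomas and 2489 (17.2%) at least 2-fold lower. At 8-fold the counts were 673 (4.64%) higher and 547 (3.77%) lower. The remaining 9368 genes, 64.6%, differed by under 2-fold, and the median log2 ratio was 0.02 with quartiles of -0.63 and 0.70. These shares are the background for each gene list that follows. When both groups were scaled to the same sum, the median moved to -0.20 and the higher genes made up 40.5% of the 2-fold genes in place of 51.4%. A list with a small median can therefore change direction with the scaling.

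**Figure D1:**
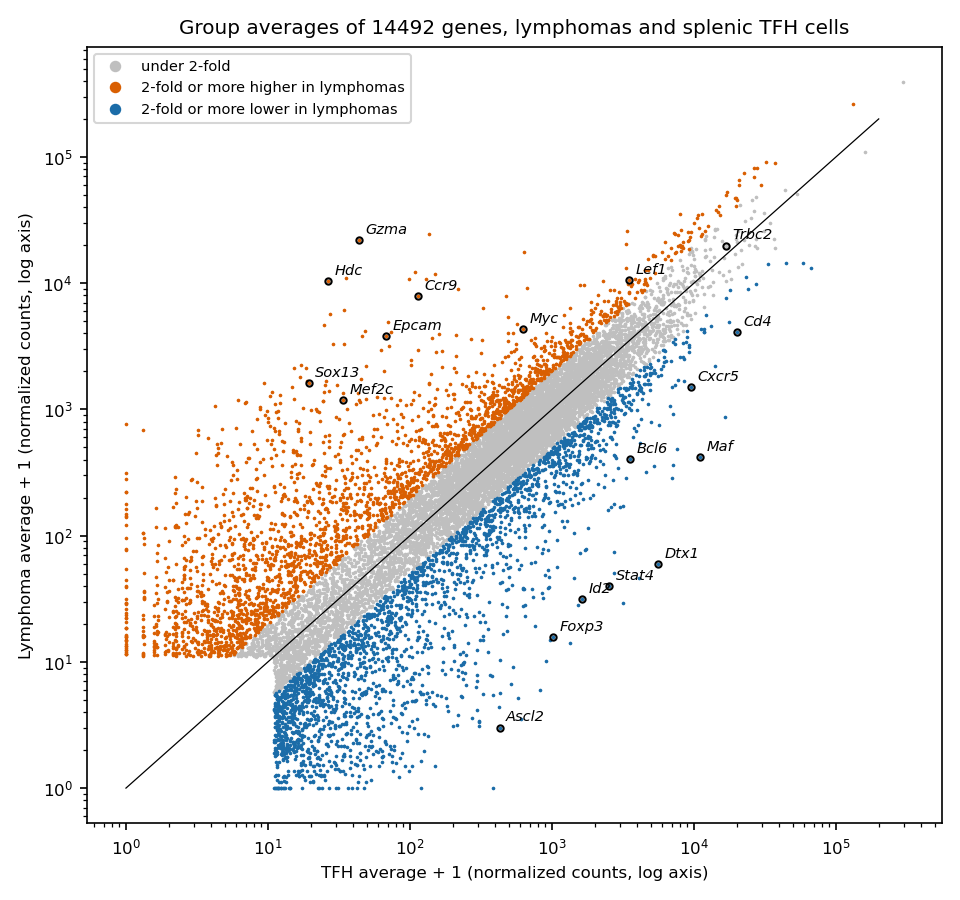
Each point is a gene, with its TFH average on the horizontal axis and its lymphoma average on the vertical axis, both with 1 added and on log axes. Orange and blue points differ by at least 2-fold, and named circles mark genes such as Ascl2, at 429 in TFH cells and 2.01 in lymphomas, and Gzma, at 42.9 and 21911.

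Both the transcription factors and the surface receptors of TFH cells were lower in the lymphomas as lists. Among 17 transcription factors and adaptors of TFH cells, 11 were at least 2-fold lower in lymphomas and 1 was higher, with a median log2 ratio of -1.68. Ascl2, a basic helix-loop-helix factor that starts the TFH programme, averaged 429 normalized counts in TFH cells and 2.01 in lymphomas (log2 ratio -7.16). Maf, which drives IL-21 and CXCR5, averaged 11057 and 417, a log2 ratio of -4.73. Bcl6, the repressor on which the lineage depends, averaged 3543 and 402, a log2 ratio of -3.14. The Rab-GAP gene Tbc1d4, at 7582 and 483, and Tox2, at 7173 and 922, followed the same direction. These lymphoma averages lay close to those of control CD4SP cells for Ascl2 (2.60), Bcl6 (529.9) and Tbc1d4 (564), and above them for Maf (188) and Tox2 (134). Batf, Tox, Sh2d1a and Stat3 differed by under 2-fold, with log2 ratios of -0.89, -0.28, -0.20 and -0.08. Lef1, a TCF family factor of thymocytes and naive cells that also acts early in TFH cells, was the exception at 3500.2 in TFH cells and 10624 in lymphomas.

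Of 20 TFH receptors and surface proteins, 10 were at least 2-fold lower in lymphomas and 0 were higher, with a median log2 ratio of -1.01 and 17 below 0. Cxcr5 averaged 9568 in TFH cells and 1492 in lymphomas, a log2 ratio of -2.68, and the lymphoma value lay nearer to that of Id2-/-Id3-/- CD4SP cells (2006) than to the other 3 groups. Larger gaps were seen for the IL-6 receptor gene Il6ra, at 2994 and 168, and for Tnfsf8, the CD30 ligand gene, at 2359 and 299. Tigit, which encodes an inhibitory receptor, averaged 2646 and 581. In contrast Pdcd1, the gene of the PD-1 receptor, averaged 5192 in TFH cells and 2881 in lymphomas, which is under 2-fold. Icos, a costimulatory receptor gene needed for TFH cells, averaged 3621 and 2430.1, and Slamf6 4862 and 4012. Izumo1r, which encodes folate receptor 4, was the highest of the list in lymphomas, at 15558 against 9932. Transcripts of PD-1, ICOS, CD200 and folate receptor 4 thus stood within 2-fold of the TFH level, while those of Ascl2, Maf and Bcl6 did not.

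**Figure D2:**
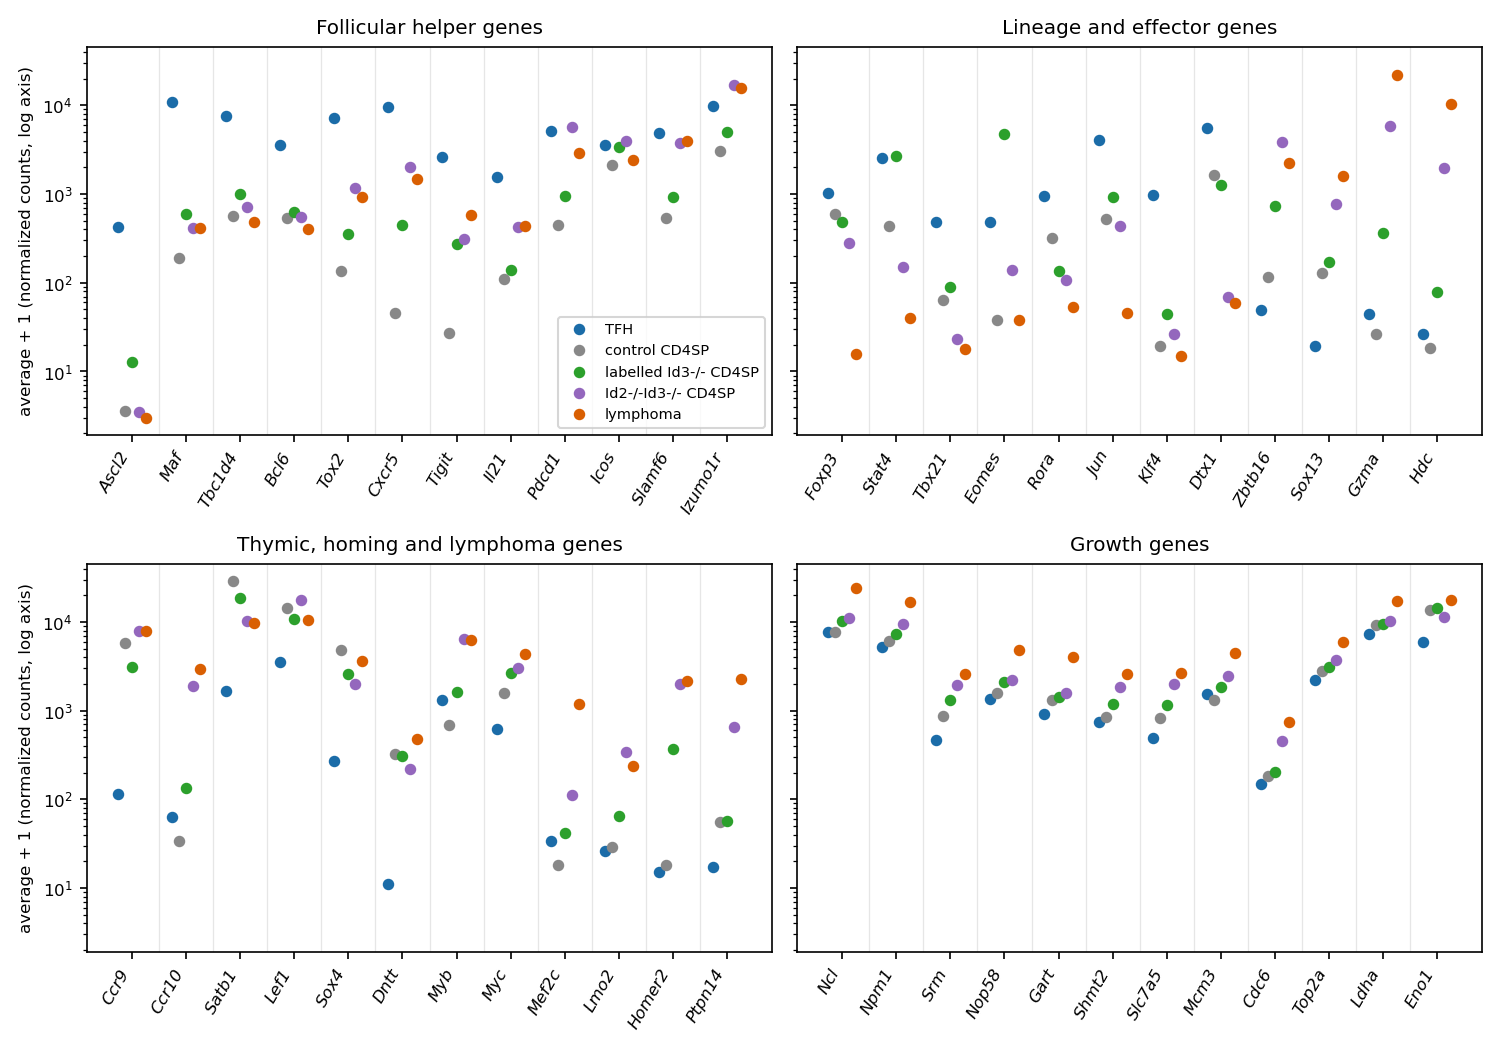
Averages with 1 added (log axes) are shown for 12 genes in each panel in TFH cells, the 3 groups of CD4SP thymocytes and the lymphomas, with 1 point per group and no error, since each is a group average. Maf and Bcl6 are high in TFH cells and low in lymphomas, Izumo1r is high in both, and Ccr9, Sox13 and Gzma are low in TFH cells and high in lymphomas.

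Among 13 factors that restrain TFH development, 4 were at least 2-fold lower and 2 higher in lymphomas (median log2 ratio -0.61). Foxo1, a factor of quiescence and lymphoid homing, averaged 3225 in TFH cells and 913 in lymphomas, and Foxp1 averaged 3103 and 1301. Both lymphoma values were near those of Id2-/-Id3-/- CD4SP cells, at 843 for Foxo1 and 1211 for Foxp1, while control CD4SP cells held 4103 and 4343. Il7r, the IL-7 receptor gene of resting T cells, went the other way with 1538 in TFH cells and 3392 in lymphomas. Stat5a, which signals downstream of that receptor, averaged 1481 and 3787. So a pair of FOX factors and the IL-7 receptor, which are found together in naive cells, parted in direction here. Of the 19 naive T cell and egress genes, 5 were at least 2-fold higher and 6 lower in lymphomas, with a median log2 ratio of -0.43. The higher ones included, besides Il7r and Lef1, Satb1, a chromatin organizer of thymocytes, at 1686 and 9718, and Igfbp4 at 209 and 941. The lower ones included Klf3 at 2112 and 255 and the egress receptor gene S1pr1 at 2315 and 813.

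Transcripts of helper cytokines were lower in the lymphomas. Of 23 cytokine genes looked for, 6 had averages under 10 in both groups, and of the 17 kept, 12 were at least 2-fold lower in lymphomas and 2 higher, with a median log2 ratio of -1.88. Il21, the main cytokine by which TFH cells help B cells, averaged 1551 normalized counts in TFH cells and 440.4 in lymphomas, a log2 ratio of -1.81. The other TFH cytokine gene, Il4, averaged 415 and 92.7. Ifng averaged 328 and 15.0, a log2 ratio of -4.36, and Il10 66.9 and 11.9. The exceptions were low in both groups, Il22 at 2.68 and 27.7 and Il13 at 2.83 and 12.3.

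The TFH average also held transcripts of regulatory and Th1 cells, and these were low in the lymphomas. Of the 20 regulatory T cell genes, 15 were at least 2-fold lower in lymphomas and 1 was higher, with a median log2 ratio of -1.77. Foxp3, the defining factor of regulatory T cells, averaged 1016 in TFH cells and 14.6 in lymphomas, a log2 ratio of -6.03. Nt5e, the CD73 gene, averaged 2747 and 73.4, and the IL-2 receptor alpha chain gene Il2ra averaged 454 and 67.5. The sort for CXCR5 and CD44 does not remove follicular regulatory T cells, and in averages fewer cells of a type and less RNA per cell cannot be told apart. Among 19 lineage-specifying factors, 11 were at least 2-fold lower and 3 higher, with a median log2 ratio of -1.36. The Th1 factor gene Tbx21 averaged 480.0 and 16.7, Eomes 486 and 37.0, and the Th17 and innate cell factor gene Rora 944 and 52.1. Gata3, which specifies Th2 cells and is also present in all alpha-beta T cells, differed by under 2-fold, at 1969 and 3049.

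All 3 lineage factors that were at least 2-fold higher in lymphomas differed by over 8-fold. Sox13, a factor of gamma-delta T cells, averaged 18.4 in TFH cells and 1616 in lymphomas, a log2 ratio of 6.38. Zbtb16 encodes PLZF, which directs innate-like T cells such as NKT cells, and it averaged 48.2 and 2211, a log2 ratio of 5.49. The thymic factor gene Sox4 averaged 268 and 3615. Sox13 and Zbtb16 were also high in Id2-/-Id3-/- CD4SP cells, at 778 and 3912, with 127 and 116 in control CD4SP cells, whereas Sox4 was higher in the control CD4SP cells (4769.8) than in the lymphomas.

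Cytotoxic and NK cell genes went in both directions. Gzma, which encodes the protease granzyme A, averaged 42.9 in TFH cells and 21911 in lymphomas, a log2 ratio of 8.96, while Gzmb averaged 49.4 and 2.63 and Gzmk 169 and 9.06. Prf1, the perforin gene, differed by under 2-fold, at 42.8 and 51.0. In all, 4 of the 17 granule genes were under the filter, and of the 13 kept 2 were at least 2-fold higher and 6 lower. Among NK receptors and adaptors, 10 of 26 were under the filter, 6 were at least 2-fold higher and 8 lower. The Ly49 receptor genes Klra1 and Klra3, which can share reads with other members of their cluster, averaged 791 and 100.1 in lymphomas and 9.01 and 2.63 in TFH cells. Klrg1 went from 111 in TFH cells to 2.54, and Klrb1c, which encodes NK1.1, from 230.0 to 52.4. Constant genes of the gamma chain were higher in lymphomas, with Tcrg-C2 at 19.7 and 365, and the other 2 kept genes of the gamma and delta list, Tcrg-C1 and Tcrg-C4, had log2 ratios of 1.58 and 2.07. The gamma and delta V genes on the list were all under the filter, with Tcrg-V1 the highest in lymphomas at 7.66.

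Chemokine receptor genes were balanced as a list. Of 18, 3 were under the filter, 4 were at least 2-fold higher and 4 lower in lymphomas, with a median log2 ratio of -0.52. Ccr9, the receptor for the chemokine of the thymus and small intestine, averaged 112 in TFH cells and 7845 in lymphomas, a log2 ratio of 6.11, beside 5827 in control CD4SP cells. Ccr10, a receptor for skin and mucosal chemokines, averaged 61.9 and 2954, and here the control CD4SP cells were low (32.5) and the Id2-/-Id3-/- CD4SP cells high (1911). Ccr2 and Ccr4 were higher too, with log2 ratios of 2.41 and 1.54. Lower, with Cxcr5, were Cxcr3, at 1843 and 199, Ccr6, at 89.7 and 3.71, and Ccr8, at 121 and 48.2. Cxcr4 and Ccr7, the receptors for bone marrow and lymph node chemokines, differed by under 2-fold.

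Adhesion genes lay in both directions, 6 of 20 at least 2-fold higher and 8 lower. Cd44, part of the TFH sort, averaged 4627 in TFH cells and 319 in lymphomas. Itgae, the CD103 chain that binds epithelial E-cadherin, averaged 115 and 604, and Itgb3 303 and 1492. Itgal and Itgb1, the chains of LFA-1 and the VLA integrins, had log2 ratios of -1.42 and -1.68. Epcam, an epithelial adhesion molecule that is also present in some T cells, averaged 67.0 in TFH cells, 3797 in lymphomas and 593 in Id2-/-Id3-/- CD4SP cells.

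Several thymocyte genes were higher in the lymphomas, and the recombinase genes were not. Of 20 thymocyte and recombinase genes, 4 were under the filter, 8 were at least 2-fold higher in lymphomas and 1 was lower. Dntt, the terminal transferase that adds bases at V(D)J junctions, averaged 10.1 in TFH cells, 482 in lymphomas and 326 in control CD4SP cells. Arpp21 and Aqp11, genes of CD4+CD8+ thymocytes, averaged 10.3 and 4.70 in TFH cells and 673 and 302 in lymphomas. By contrast Rag1 averaged 1.23 and 0.423, Ptcra, the pre-TCR chain gene, 0.317 and 0.226, and Rag2 was listed at 0 in lymphomas. The lymphomas thus carried Ccr9, Dntt, Satb1, Sox4 and Lef1 transcripts at or above a log2 ratio of 1.60 over TFH cells, and Rag1, Rag2 and Ptcra were near 0 in both groups.

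Signalling receptors and their pathways were mostly lower. Of 19 kept costimulatory and checkpoint receptor genes, 10 were at least 2-fold lower in lymphomas and 0 were higher, with a median log2 ratio of -1.33. Ctla4 averaged 2877 and 756, the OX40 gene Tnfrsf4 1226 and 186, and Lag3 1761 and 912. Among 29 cytokine receptor chains kept, 14 were at least 2-fold lower and 5 higher. Il10ra averaged 889.6 and 47.9, while Il17rb, a receptor chain for IL-25 found on type 2 innate-like cells, averaged 256 and 1845. Stat4, which carries the IL-12 signal in Th1 and TFH cells, averaged 2529 normalized counts in TFH cells and 38.6 in lymphomas, the lowest log2 ratio (-6.00) of the 23 JAK-STAT and SOCS genes. Of these, 11 were at least 2-fold lower and 1, Stat5a, was higher. Stat3, Stat5b and Jak1 differed by under 2-fold.

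The T cell receptor machinery itself stood at similar levels. Of its 24 genes, 18 differed by under 2-fold, including Lck, Zap70, Lat and Cd28. Those at least 2-fold lower included Cd4, the phosphatase gene Ptprc (27141 and 9796) and Fyn (-1.12 on the log2 scale), and the 2 higher were Cd8a and Cd8b1. Genes induced early by the receptor were mixed, 6 of 20 higher and 7 lower. Egr1 and Egr2 averaged 2685 and 1145 in TFH cells and 6735 and 2338 in lymphomas, and Spry2, an inhibitor of receptor signalling, 6.53 and 197. Nr4a1, a reporter gene of receptor signals, was level at 1585 and 1551.

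AP-1 genes were among the most different. Jun, which pairs with FOS proteins on DNA, averaged 4101 in TFH cells and 44.8 in lymphomas, a log2 ratio of -6.48, and Klf4 965 and 13.9. Of the 23 kept AP-1 and immediate early genes, 12 were at least 2-fold lower and 4 higher, with a median log2 ratio of -1.33. Fos averaged 7306 and 1554, Fosb 2498 and 159.6 and Junb 17752 and 4892, while Jund, the steady member, had a log2 ratio of -0.29. Genes of this group also respond to tissue dissociation and sorting. The part of handling in the difference was not tested, and among the 13 kept heat shock and stress genes, 4 were at least 2-fold higher in lymphomas and 0 lower. Control CD4SP cells, sorted from the thymus, averaged 526 for Jun and 307 for Fos. Hsp90ab1, a chaperone gene, averaged 26356 and 82362, and the inducible Hspa1a 1303 and 2369.

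NF-kB and TNF family genes were lower in 11 of 25 cases and higher in 1, with a median log2 ratio of -0.90. Traf1 averaged 2699 and 275, Bcl3 783 and 79.7, and Relb, a subunit of the alternative pathway, 1541 and 395. Ltb, the lymphotoxin beta gene, averaged 6813 and 1067. The subunits Rela and Nfkb1 differed by under 2-fold, with log2 ratios of -0.69 and -0.90.

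Interferon-stimulated and MHC class I genes were lower in the lymphomas. Of 29 interferon-stimulated genes, 18 were at least 2-fold lower and 0 higher, with a median log2 ratio of -1.35. Ifit1, an antiviral RNA-binding gene, averaged 585 and 95.8 and Isg15 681 and 139.8. Control and Id2-/-Id3-/- CD4SP cells held more of Isg15 than either member of the pair, at 1045 and 1202. Of 19 genes of MHC class I presentation, 9 were at least 2-fold lower and 0 higher. The heavy chain gene H2-K1 averaged 67054 in TFH cells and 13162 in lymphomas, and H2-D1 44612 and 14322. The Qa region genes H2-Q6 and H2-Q7, which are near-identical and can share reads, averaged 6964 and 16431 in TFH cells and 287 and 873 in lymphomas. Nlrc5, the transactivator of class I genes, averaged 4180.3 and 541, and B2m, the light chain gene, 37150.0 and 18858. Peptide processing genes of the same list were uneven, with Tap1 at a log2 ratio of -1.47, Psmb8 at 0.59 and Erap1 at 0.66.

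Genes of cell growth were higher in the lymphomas. All 36 ribosome biogenesis genes had log2 ratios above 0, 30 of them at least 2-fold and 0 at least 2-fold lower, with a median of 1.33, where 18.2% of all genes were at least 2-fold higher. The snoRNP proteins are examples. Nop58 averaged 1337 normalized counts in TFH cells and 4829 in lymphomas, Nop56 1889.9 and 5677 and Nhp2 391 and 1481. Mybbp1a, of the nucleolus, averaged 1892 and 6163. The Id2-/-Id3-/- CD4SP average lay between the 2 for each of these, at 2228, 3536, 1059 and 2809.8. Of 27 kept genes of nucleotide and one-carbon synthesis, 17 were at least 2-fold higher in lymphomas and 0 lower, with a median of 1.31. Shmt2, which feeds carbon units from serine in mitochondria, averaged 737 and 2595, the purine enzyme gene Gart 910.1 and 4022, and Slc7a5, a transporter of large amino acids, 491 and 2671. Mthfd2 and Slc1a5, of the same list, differed by under 2-fold, with log2 ratios of -0.40 and -0.15.

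Glycolysis followed, with 10 of 25 genes at least 2-fold higher, 1 lower and a median log2 ratio of 0.93. The lactate dehydrogenase gene Ldha averaged 7323 and 17395, Eno1 5912 and 17602, and the lactate exporter gene Slc16a3 140.4 and 1012. Hk1 and Pfkp, which act early in the pathway, had log2 ratios of -0.58 and -0.79, while the inducible hexokinase gene Hk2 averaged 79.5 and 264. Nuclear-encoded genes of oxidative phosphorylation were shifted by less but in nearly every member, 35 of 37 with a log2 ratio above 0 and 1 at 2-fold, around a median of 0.63. Of 23 kept HIF1A pathway genes, 5 were at least 2-fold higher and 1 lower. Hif1a itself averaged 7591 in TFH cells, 4361 in lymphomas and 1357 in control CD4SP cells, and Ndrg1, a stress and hypoxia gene, 69.9 and 3155. Cholesterol genes were balanced as a list, 3 higher and 3 lower of 28. Fasn, the fatty acid synthase gene of the same list, averaged 2476 and 7169.

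**Figure D3:**
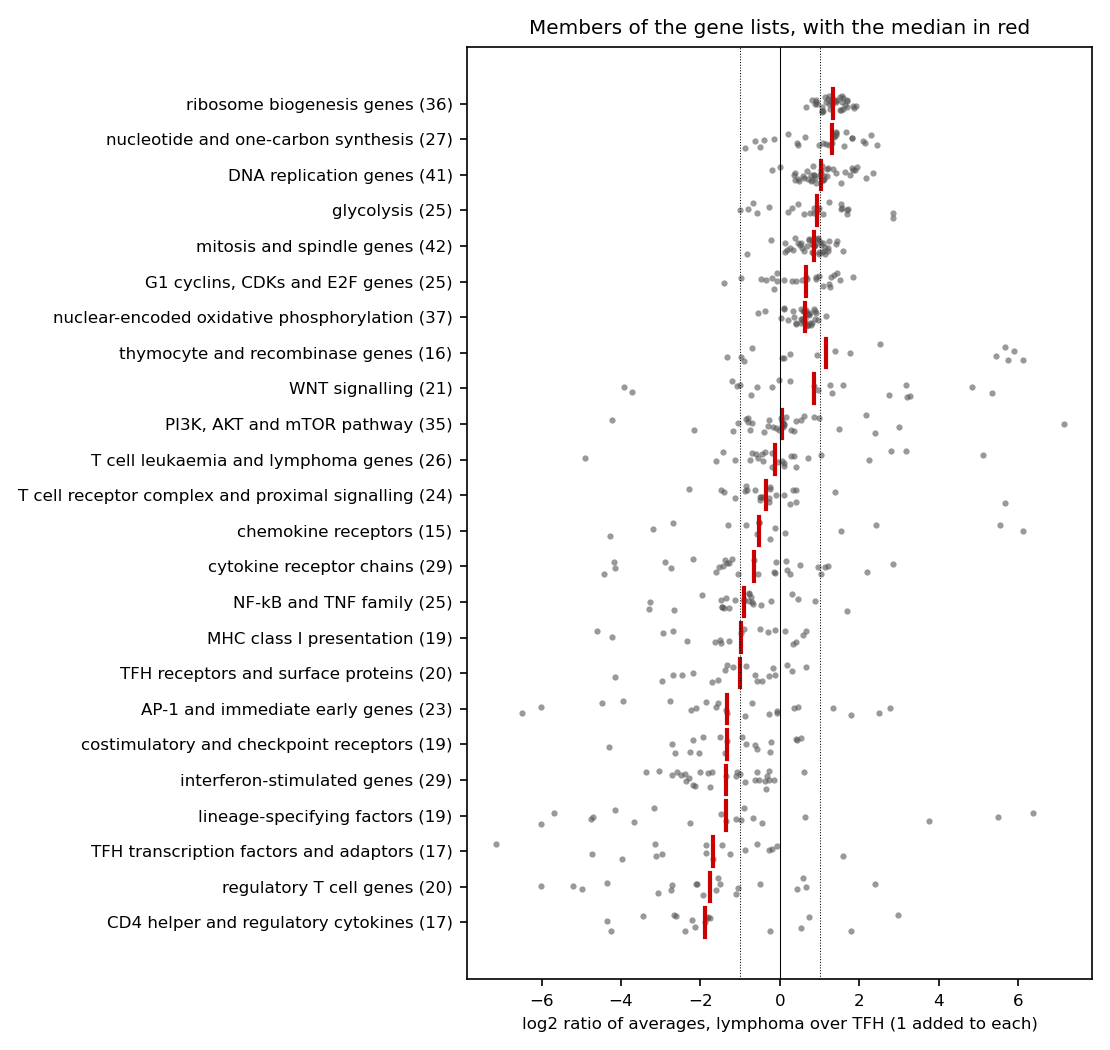
The log2 ratio of the lymphoma to the TFH average (horizontal axis) is shown for each kept member of 24 gene lists, with the number of members in parentheses, the list median as a red bar and dotted lines at 2-fold. The ribosome biogenesis genes lie together at a median of 1.33 and the lineage factors spread from -6.03 for Foxp3 to 6.38 for Sox13.

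DNA replication and mitosis genes were higher with smaller ratios. Of 41 replication genes, 22 were at least 2-fold higher and 0 lower, with a median log2 ratio of 1.02, and of 42 mitosis and spindle genes 13 were at least 2-fold higher and 0 lower, with a median of 0.86. Cdc6 and Mcm3, which load the replicative helicase, averaged 146 and 1549 in TFH cells and 742 and 4478 in lymphomas. Uhrf1, which keeps DNA methylation through replication, averaged 882 and 3133. Top2a, a topoisomerase of dividing cells, averaged 2209 and 6016, Cdk1, the kinase that starts mitosis, 312 and 688, and Mki67, the gene of the Ki67 antigen, 2353 and 3935. Aurka and Pttg1 were not higher, with log2 ratios of -0.22 and -0.82. In control CD4SP cells Mki67 averaged 2179.

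Promoters of these lists were searched for motifs, which the choice of genes did not use. The bases just before the start of Top2a and Cdk1 are shown because they hold both parts of the element of G2 and mitosis genes, the CCAAT box and the cell cycle homology region (TTTGAA). They are RefSeq promoter sequence of GRCm38.p6, the patch release of mm10, 250 bases before the start, read 5′ to 3′ on the minus strand, with CCAAT or its complement ATTGG and TTTGAA or its complement TTCAAA in capitals.
Top2a, chr11:99024190-99024439: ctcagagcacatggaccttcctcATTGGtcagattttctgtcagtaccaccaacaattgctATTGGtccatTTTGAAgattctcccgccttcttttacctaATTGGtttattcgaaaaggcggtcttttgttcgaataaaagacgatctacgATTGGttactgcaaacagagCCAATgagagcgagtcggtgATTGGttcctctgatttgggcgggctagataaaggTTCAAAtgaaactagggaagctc
Cdk1, chr10:69352913-69353162: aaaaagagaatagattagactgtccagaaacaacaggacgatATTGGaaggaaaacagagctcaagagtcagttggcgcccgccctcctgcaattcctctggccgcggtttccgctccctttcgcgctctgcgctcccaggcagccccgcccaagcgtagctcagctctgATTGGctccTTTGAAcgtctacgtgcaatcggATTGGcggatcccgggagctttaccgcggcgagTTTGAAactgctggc
The Top2a stretch holds 6 CCAAT boxes and 2 TTTGAA matches, and the Cdk1 stretch 3 and 2. Promoters were searched from 250 bases before to 50 after the start, on both strands, and 10322 of the 14492 genes matched RefSeq by symbol, with 13183 promoters. Of 37 promoters of the mitosis list, 27 (73.0%) held CCAAT and 27 (73.0%) TTTGAA, against 37.7% and 12.1% of promoters of all kept genes and 37.4% and 17.9% of all 32851 RefSeq promoters. For 42 promoters of the replication list the shares were 59.5% and 14.3%, so CCAAT was above both backgrounds in either list and TTTGAA in the mitosis list alone, with no test. Genes at least 2-fold higher and at least 2-fold lower in lymphomas as a whole held CCAAT in 35.6% and 35.3% of their promoters and TTTGAA in 11.7% and 13.1%. A match is a run of letters and not a bound site, and none of the motifs searched contains another.

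The regulators of G1 leaned the same way. Of 25 G1 cyclin, CDK and E2F genes, 8 were at least 2-fold higher and 1 was lower. E2f1 averaged 180.2 and 654, the cyclin E gene Ccne1 316 and 852 and Cdk4 1899 and 4853, while Rb1, the retinoblastoma gene that holds E2F factors in check, averaged 946 and 354. Among 22 kept CDK inhibitor and p53 pathway genes, 5 were at least 2-fold higher and 1, Cdkn1b, was lower (3207 and 1127). Pmaip1, the gene of the p53 target NOXA, averaged 166 and 886. Cdkn2a, which encodes p16 and p19ARF, was under the filter in both, at 7.10 in TFH cells and 6.01 in lymphomas, against 192 in Id2-/-Id3-/- CD4SP cells. The BCL2 family split 4 higher to 3 lower of 16 kept. The death promoting members Bmf and Bbc3 had log2 ratios of 1.57 and 1.40, the NF-kB target Bcl2a1b one of -1.62, and Bcl2 and Mcl1 differed by under 2-fold.

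The Myc gene (chr15:61985391-61990374) had an average of 626 normalized counts in TFH cells and 4326 in lymphomas, a log2 ratio of 2.79. Among CD4SP cells the controls held 1576 and the Id2-/-Id3-/- libraries 3015. Of 20 kept genes of the MYC network, 8 were at least 2-fold higher, namely Myc and a set of its known targets such as the nucleolin gene Ncl (7747 and 24031), Npm1 (5158 and 16728), Nme1 (1007 and 3757) and the spermidine synthase gene Srm (468 and 2622). The partner and antagonist genes Max, Mxd1, Mxi1 and Mnt differed by under 2-fold, and Mycl was lower at 15.3 and 1.74. Odc1, another known target, had a log2 ratio of -0.80. The E-box CACGTG, which MYC and its partner bind, was held by 6 of 36 promoters of the ribosome biogenesis list (16.7%). The shares were 9.82% for all kept genes, 10.2% for genes at least 2-fold higher in lymphomas and 7.15% for all RefSeq promoters. In the replication list 6 of 42 promoters (14.3%) held it and in the mitosis list 3 of 37 (8.11%), with no test. Nop2, an rRNA methyltransferase gene at 686 and 1656, is shown because it holds this E-box before its start, on the plus strand of GRCm38.p6 with the E-box in capitals.
Nop2, chr6:125131633-125131882: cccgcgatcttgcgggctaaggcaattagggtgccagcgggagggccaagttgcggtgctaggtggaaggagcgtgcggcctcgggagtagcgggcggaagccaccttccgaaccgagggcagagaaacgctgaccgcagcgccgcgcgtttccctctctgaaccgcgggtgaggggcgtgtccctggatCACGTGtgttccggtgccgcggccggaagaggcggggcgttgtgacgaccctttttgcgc

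Genes known from T cell leukemia and lymphoma differed one by one. Of 35, 9 were under the filter, 5 were at least 2-fold higher and 4 lower. Mef2c, an oncogene of immature T cell leukemia, averaged 32.9 in TFH cells and 1181 in lymphomas, a log2 ratio of 5.13, beside 110.5 in Id2-/-Id3-/- CD4SP cells. Lmo2 averaged 25.4 and 236, with 342 in Id2-/-Id3-/- CD4SP cells, and Myb, a factor of immature and cycling cells, 1333 and 6336. Tal1, Tlx1, Tlx3, Lmo1 and Hoxa9 averaged under 10 in both groups. The tumor suppressor genes Phf6, Fbxw7 and Ikzf1 differed by under 2-fold, with log2 ratios of 0.34, -0.37 and 0.28, and Bcl11b had one of -0.70. Trp53 averaged 2819 and 4642.

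PI3K pathway genes were level as a list, with 26 of 35 under 2-fold and a median log2 ratio of 0.06, and some scaffold and kinase genes stood apart. Homer2, a scaffold gene, averaged 14.1 in TFH cells and 2143 in lymphomas, a log2 ratio of 7.15, and Rps6ka2, which encodes a ribosomal S6 kinase, 102 and 827. In Id2-/-Id3-/- CD4SP cells these genes averaged 1980.5 and 2336. Pik3cb, the p110 beta gene, averaged 121 and 5.56, while Tsc1, Tsc2 and Mtor lay within 0.10 of 0. Among 16 kept PTPN phosphatase genes, 3 were higher and 5 lower. Ptpn14 averaged 16.1 and 2267, a log2 ratio of 7.05, and Ptpn11, the SHP2 gene, 8460.4 and 1682. Of 29 RAS, RAP1 and MAPK regulators, 21 differed by under 2-fold, 7 were at least 2-fold lower and 1 was higher, with a median log2 ratio of -0.32. The exception on the higher side was Rapgef3, a cAMP-activated exchange factor gene, at 14.5 and 368.

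WNT genes were higher in 9 and lower in 4 of 21 kept members, with 6 of 27 under the filter. Their median log2 ratio depended on the filter, at 0.85 as kept, -0.02 without a filter and 0.26 with a filter of 100. Wnt6, Wnt5a and Fzd7 were kept only through their lymphoma averages. The ligand genes Wnt10a, Wnt6 and Wnt5a averaged 211, 6.15 and 3.31 in TFH cells and 1963, 203 and 174 in lymphomas. Among receptors, Fzd7 averaged 8.09 and 86.5, and Axin2, a target and brake of the pathway, 1211 and 526. NOTCH genes split 5 higher to 4 lower of 19. Dtx1, a NOTCH target in T cells, averaged 5615 and 58.4, a log2 ratio of -6.56, and Hes1 25.3 and 1.14, while Notch1 had a log2 ratio of -0.61 and the ligand gene Jag2 averaged 59.9 and 921. In the TGF-beta and BMP list, 4 of 23 were higher and 7 lower, with the endoglin gene Eng at 10.2 and 1105. Of 28 DNA methylation and chromatin enzyme genes, 8 were higher and 1 lower. Hmga1, a chromatin protein gene of growing cells, averaged 1573 and 9689, and the methyltransferase genes Dnmt3a and Dnmt3b had log2 ratios of 1.03 and 1.70. Of 10 E and Id protein genes, 3 were under the filter. Tcf3, the E2A gene, and Tcf12, the HEB gene, were level, with log2 ratios of -0.15 and 0.07, and Tcf4, the E2-2 gene, averaged 128 and 27.7.

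The genes with the largest ratios were named by a fixed rule, the 15 most extreme in each direction among 10232 genes with a symbol and a larger average of at least 100. On the higher side 9 were protein coding. Cyp2c23, a cytochrome P450 gene, averaged 0.317 in TFH cells and 688 in lymphomas, and at 6.82 or less in each group of CD4SP cells it was not shared with the thymocytes. After it came Gzma and then Hdc, the enzyme that makes histamine, at 25.7 and 10372 with 1949.7 in Id2-/-Id3-/- CD4SP cells. Ear6, a ribonuclease gene listed at 0 in TFH cells, averaged 315. The potassium channel genes Kcnj2 and Kcnf1 averaged 1056 and 6087 in lymphomas, 3.23 and 33.1 in TFH cells and 403 and 5309.8 in Id2-/-Id3-/- CD4SP cells. Gstm1, a glutathione transferase gene, averaged 23.9 and 4658, Clvs1 5.17 and 1185, and Tmem40 2.23 and 685. The other 6 were noncoding genes or pseudogenes, Rps3a2, Gm6969, Gm11223, Gm5166, Gm13346 and Platr14. Pseudogenes such as Rps3a2, at 34.4 in TFH cells, 11031 in lymphomas and 14021 in Id2-/-Id3-/- CD4SP cells, can share reads with their parent genes. Platr14 and Gm5166, at 219.8 and 219 in lymphomas, were listed at 0 in TFH cells, and Gm5166 was listed at 0 in each of the other 4 groups.

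On the lower side 6 of the 15 were V genes of the T cell receptor and 7 were protein coding. Besides Ascl2, Dtx1 and Jun, these were Zfp827, a zinc finger gene, at 818 and 4.99, Sntb1, a syntrophin gene, at 578 and 4.13, Smtn, the smoothelin gene, at 3180.0 and 28.4, and Fam43a at 1346 and 13.1. Zfp827, Dtx1, Jun, Smtn and Sntb1 were also above the lymphoma level in control CD4SP cells, at 391, 1650, 526, 99.2 and 57.4. Ascl2 and Fam43a were near the lymphoma level there, at 2.60 and 13.4. The pseudogenes Rpl27-ps3, listed at 0 in lymphomas against 386 in TFH cells, and Ces2d-ps, at 424 and 3.41, made up the rest.

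E-boxes read by E proteins were looked for in the promoters, and those of Gzma and Ascl2 are shown because both genes are among the most different and hold such an E-box. The sequences are 250 bases before the start in GRCm38.p6, read on the minus strand, with CAGGTG or its complement CACCTG in capitals. Neither holds CAGCTG.
Gzma, chr13:113100982-113101231: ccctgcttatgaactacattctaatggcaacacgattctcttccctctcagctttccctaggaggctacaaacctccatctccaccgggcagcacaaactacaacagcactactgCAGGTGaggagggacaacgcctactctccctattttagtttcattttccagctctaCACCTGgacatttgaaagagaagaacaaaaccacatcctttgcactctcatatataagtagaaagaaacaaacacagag
Ascl2, chr7:142969265-142969514: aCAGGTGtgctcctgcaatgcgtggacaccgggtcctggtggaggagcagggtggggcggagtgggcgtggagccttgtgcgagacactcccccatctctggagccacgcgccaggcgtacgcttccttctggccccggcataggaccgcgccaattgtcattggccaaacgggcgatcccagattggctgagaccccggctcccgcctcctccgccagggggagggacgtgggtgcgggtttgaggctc
Gzma holds 2 matches and Ascl2 holds 1. Of the promoters of genes at least 2-fold higher in lymphomas, 18.3% held CAGCTG and 22.7% CAGGTG, and of those at least 2-fold lower 19.5% and 19.3%, beside 15.6% and 18.7% of all kept genes. Of all RefSeq promoters 16.3% held CAGCTG and 20.2% CAGGTG, so the CAGGTG share of the lower genes lay between both backgrounds. These shares carry no test.

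The other groups show whether TFH cells or lymphomas stood apart. Of the 2635 genes at least 2-fold higher in lymphomas, 922 (35.0%) were at least 2-fold above each of the other 4 groups, and in 367 (13.9%) TFH cells were at least 2-fold below each of the others. For the 2489 lower genes, lymphomas were at least 2-fold below each other group in 781 (31.4%), and TFH cells at least 2-fold above each in 625 (25.1%). Ascl2, Fam43a and Klf4 are of the last kind and Foxp3 and Stat4 of the kind before it. The control CD4SP average lay nearer, on the log scale, to TFH cells than to lymphomas for 77.3% of the higher and 61.4% of the lower genes. The Id2-/-Id3-/- CD4SP average lay nearer to the lymphomas for 54.6% of the higher and 55.7% of the lower genes. The genes were picked by the lymphoma and TFH values, so these shares describe the picked genes and carry no test.

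By chromosome, genes on chromosome 15 were higher in lymphomas. Their median log2 ratio was 0.40 over 534 genes, with quartiles of -0.29 and 1.10, and 64.0% of them were above 0. Antigen receptor segments, which lie on chromosomes 6, 12, 13, 14 and 16 and with which the median of chromosome 14 was -0.40, were set aside for the rest of this comparison, an alternative chosen after the values were seen. Without them the other 19 chromosomes with at least 100 kept genes ran from -0.21 on chromosome 14 to 0.25 on chromosome 11. Also without segments, all 7 windows of 10 Mb with at least 20 genes on chromosome 15 had medians above 0, from 0.20 to 0.70. No other chromosome had all of its windows on 1 side. Against control and Id2-/-Id3-/- CD4SP cells, the lymphoma medians of chromosome 15 were 0.55 and 0.44. For the other groups against TFH cells, chromosome 15 had medians of -0.02 for control, -0.02 for the libraries labelled Id3-/- and 0.02 for Id2-/-Id3-/- CD4SP cells. On chromosome 14 the first window, from 0 to 10 Mb, had a median of -2.99 over 30 genes. In the same window the medians against TFH cells were -0.17 for control and -1.03 for Id2-/-Id3-/- CD4SP cells. The next lowest windows adjoined on chromosome 2, with lymphoma medians of -0.85 (170 to 180 Mb, 70 genes) and -0.77 (180 to 190 Mb, 45 genes). Medians there were -0.06 and 0.07 for control and -0.15 and -0.20 for Id2-/-Id3-/- CD4SP cells. The highest lymphoma median of a window was 0.82, on chromosome 10 from 20 to 30 Mb. RNA averages do not count chromosomes, and a role of copy number was not tested.

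**Figure D4:**
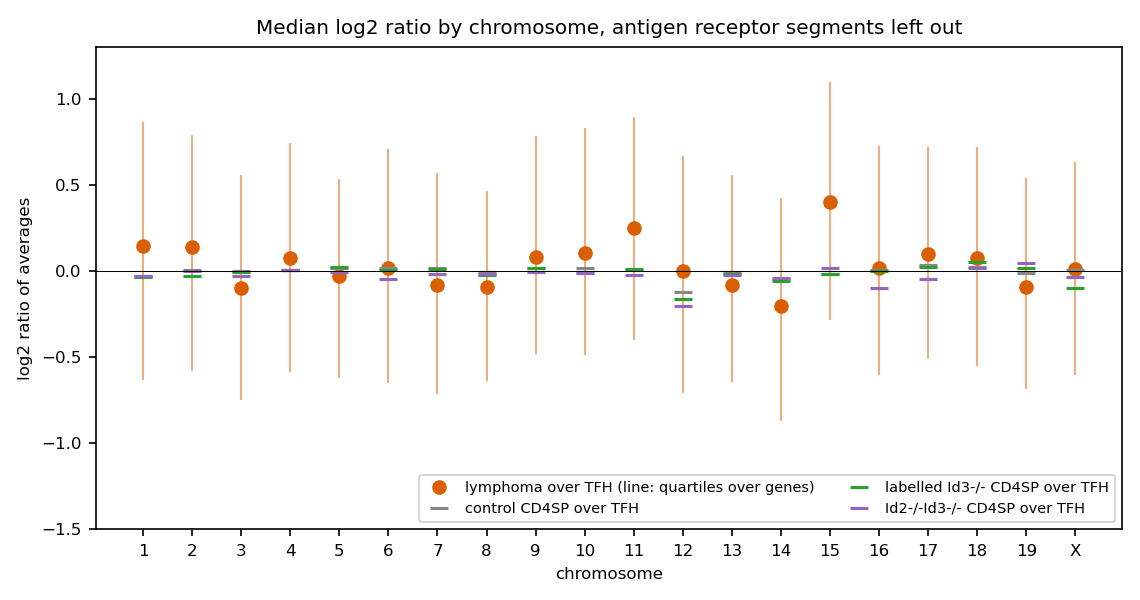
Median log2 ratio against TFH cells (vertical axis) by chromosome, with antigen receptor segments left out, for lymphomas (orange points, lines from the lower to the upper quartile over genes) and for the 3 groups of CD4SP cells (dashes). Lymphomas reach 0.40 on chromosome 15 and -0.21 on chromosome 14, and the lines show the spread over genes, which are not replicates.

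The receptor repertoire of the lymphomas was narrow. V gene shares were taken within each locus and turned, through the Shannon index, into an effective number of genes, which is lower the more a few genes dominate. For Trbv this number was 15.3 of 22 genes in TFH cells and 3.39 in lymphomas, and for Trav 69.9 of 103 and 9.21. Id2-/-Id3-/- CD4SP cells held 10.1 for Trbv and 57.7 for Trav, and control CD4SP cells 15.5 and 76.6. Trbv1 held 51.4% of lymphoma Trbv transcripts and Trbv20 30.1%, against 7.50% and 3.88% in TFH cells. Trbv13-2, the leading gene in TFH cells with 15.4%, held 5.59% in lymphomas, and Trbv3 averaged 609 and 2.53. Trav7-2 led in lymphomas with 29.5%, against 2.76% in TFH cells. Trav9n-3 and Trav9d-3, which have the same TFH average and can share reads, held 18.4% and 17.8% in lymphomas. They were also the leading Trav genes of Id2-/-Id3-/- CD4SP cells, at 8.52% and 7.58%, against 0.96% each in control CD4SP cells. Trbv1, Trbv20 and Trav7-2 were low in Id2-/-Id3-/- CD4SP cells, at 3.58%, 2.03% and 1.36%. Trbv20 and these Trav9 genes were picked out after their values were seen. Trav9-1 led in TFH cells with 6.56% and held 1.41% in lymphomas. With 6 lymphomas in 1 average, V genes dominant in single tumors and usage shared by tumors cannot be told apart.

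Markers of other cells differed between the groups in several lists. Granulocyte markers summed to 124 normalized counts over 14 genes in TFH cells and 964 in lymphomas, with S100a8 at 6.94 and 145 and Ngp at 5.83 and 217. Of these 14, 11 were kept and 10 were at least 2-fold higher in lymphomas. Erythroid and platelet markers summed to 76.7 and 433 over 13 genes, led by Hba-a2 at 5.30 and 185. The summed level of 12 basophil and mast cell markers was 53.2 and 10658, of which Hdc alone made up nearly all. Cpa3, a mast cell protease gene, averaged 1.89 and 277, and the other 10, including the defining Mcpt8, Fcer1a and Ms4a2 at 0.669, 0.136 and 0.136 in lymphomas, were under 10 in both groups.

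B cell transcripts were present on both sides, with 24 markers summing to 17095 in TFH cells and 16264 in lymphomas. Ighm made up most of both sums. Of the 24 markers, 11 were at least 2-fold lower in lymphomas and 5 higher, with a median log2 ratio of -0.75. Ighm averaged 10902 and 10603 and Igkc 1669.6 and 1247, while Cd22 (1421 and 45.5), Pax5 (64.1 and 7.59) and Ms4a1 (82.0 and 5.82) were lower in lymphomas. Blk, a kinase gene of B cells and of some gamma-delta T cells, was higher at 22.4 and 802. Markers of germinal center B and plasma cells summed to 3347 and 5929.8, with Ighg1 at 140.0 and 1904 and Igha at 877 and 121. Of the 16 kept in that list, 4 were at least 2-fold higher in lymphomas and 6 lower, with a median log2 ratio of -0.35. Myeloid and dendritic cell markers summed to 5714 and 2601, with Cebpa at 1716 in TFH cells and 75.7 in lymphomas and Lyz2, a lysozyme gene, at 12.2 and 123. Of its 24 genes 18 were kept, 6 at least 2-fold higher and 6 lower. The stroma, epithelium and endothelium list summed to 2382 and 7596, with 18 of 25 members under the filter. Epcam, Col1a1 (24.7 and 1663) and Sparc (1.21 and 215) made up most of the lymphoma excess, while the collagen genes Col3a1 and Col1a2 were at 1.48 and 9.50 there. The part of other cells in the gene differences was not tested.

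NK and gamma-delta T cell markers summed to 1142 in TFH cells and 3209 in lymphomas over 13 genes, with Sox13 at 1616 and Blk at 802 of the latter, and Klrb1c and Eomes were lower. CD8 T cell markers summed to 1672 and 2683, but 5 of the 9 were at least 8-fold lower in lymphomas and 3 at least 2-fold higher. Their median log2 ratio was -3.44. Markers of CD4+CD8+ thymocytes summed to 982 and 11412, mostly Ccr9. In the sex markers, Xist averaged 9909 in TFH cells and 10477 in lymphomas and the Y-linked Eif2s3y, Ddx3y, Kdm5d and Uty averaged 381, 533, 217 and 133 in TFH cells and 4.42, 8.04, 2.81 and 7.20 in lymphomas. Male mice thus contributed to the TFH average, while the lymphoma average held little Y-linked RNA. The sex of the lymphoma mice was not tested, and sex cannot be told apart from the other differences between the groups.

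**Figure D5:**
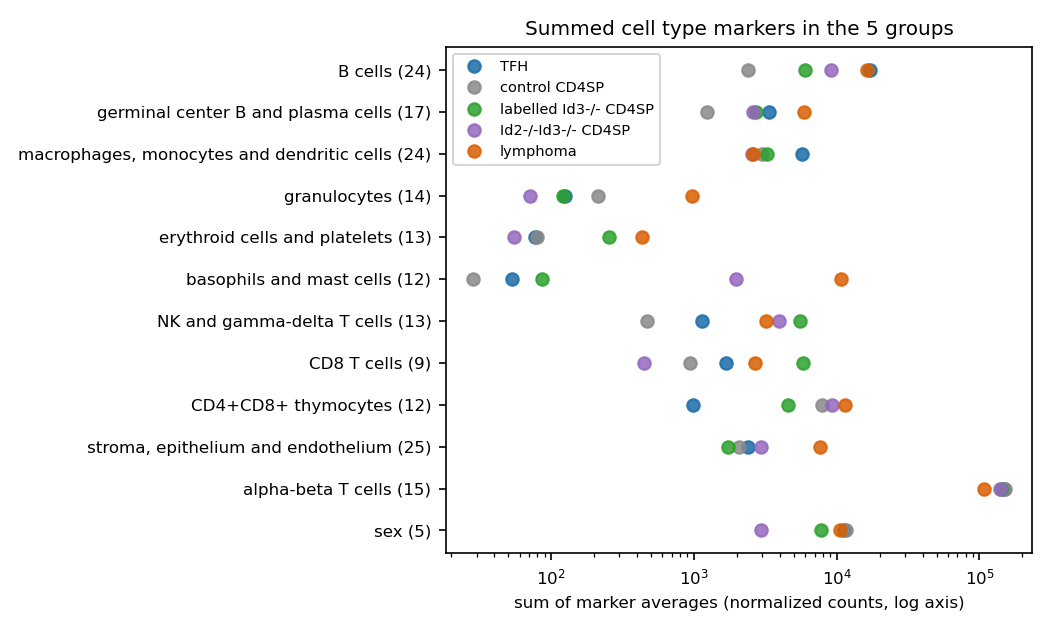
The sum of the averages of each cell type marker list (horizontal log axis, normalized counts, number of genes in parentheses) is shown for the 5 groups. Granulocyte markers reach 964 in lymphomas and 124 in TFH cells. The B cell sums lie together at 16264 and 17095, although 11 of the 24 markers were at least 2-fold lower in lymphomas and 5 higher.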

How the data were processed

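RNA was sequenced from sorted cells, and the authors deposited 1 table of 39179 Ensembl genes with an average for each of 5 groups. According to the methods and labels, strand-specific libraries were aligned to mm10 with OSA in Array Studio, RSEM estimated the counts and DESeq normalized them, with versions not given in the sources used here. Each deposited value is thus a signal, normalized counts averaged over libraries by the authors, with no value per library, so no test, interval or depth per library could be had. Another 12 columns hold the fold change, p-value and FDR of each of 4 groups against control CD4SP cells and were not used.

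For each gene log2((lymphoma average + 1)/(TFH average + 1)) was taken where the larger average was at least 10. Symbols were matched by Ensembl ID (37607 of 39179), positions came from GENCODE vM21 (GRCm38) and promoters from RefSeq (GRCm38.p6). Python 3.11.15 with numpy 2.4.6, pandas 2.3.3 and scipy 1.17.1 was used, and the counting was tested on simulated data. Figures were drawn with matplotlib 3.10.9. Named are members of 44 gene and 12 marker lists, the 15 genes most extreme in each direction with an average of at least 100, Id2, Id3, Xist, the receptor constant genes and the leading V genes. The comparison and the lists were chosen with earlier results of these data known. Alternatives were other pseudocounts (0.5 and 10), filters (100 or none) and scalings, and leaving out sex chromosomes or receptor segments.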

Additional observations from a re-analysis of the deposited data

How the results depend on the processing

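No paired analysis was possible because the deposited table holds group averages and no libraries, and for the same reason no library could be left out in turn. Of the all-gene values recomputed, 39 stayed within tolerance (1.5-fold for counts) and 9 moved, of the counts by list 791 stayed and 81 moved, and of the medians of chromosomes other than 14 and 15, 65 stayed and 25 moved. With a filter of 100, 1567 genes were at least 2-fold higher and 1206 lower, and at 8-fold 408 and 217. A pseudocount of 10 left 367 and 191 at 8-fold. Without a filter 5335 were at least 2-fold lower. The share of 2-fold genes that were higher was 39.1% without a filter and 40.5% with both groups scaled to the same sum. Of 436 list medians recomputed, 414 stayed within the tolerance, 20 moved and 2 reversed, and 10 of the 55 lists with a recomputed median, which leave out the basophil and mast cell markers, changed sign under some alternative. Without a filter the NK and gamma-delta markers turned to -0.50 and the stroma markers to -0.35, the thymocyte genes came to 0.18, WNT to -0.020, gamma and delta chain genes to 0.081, granulocyte markers to 2.95, erythroid markers to 0.59 and CD4+CD8+ thymocyte markers to 0.64. With the filter of 100 the medians turned from -0.06 to 0.45 for integrins, from -0.12 to 0.05 for leukemia genes, from -0.35 to 0.89 for germinal center B and plasma cells and from 0.04 to -0.84 for myeloid cells, and they were 0.26 for WNT, -0.028 for B cells, 1.40 for NK and gamma-delta cells, -1.03 for CD8 T cells and 5.80 for stroma. With a pseudocount of 10 they were 2.25 for granulocytes, 2.45 for erythroid cells, -1.65 for CD8 T cells, 4.51 for CD4+CD8+ thymocytes, 1.51 for stroma and -4.15 for the sex markers. The NK and gamma-delta markers came to 0.72 without receptor segments under sum scaling, which also turned the PI3K (-0.16), cholesterol (-0.18), chromatin (-0.10) and myeloid (-0.16) lists below 0.

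The median of chromosome 14 was -0.15 with a filter of 100, -0.21 without receptor segments and -0.17 for protein coding genes, the last pair of settings being chosen after the values were seen. Summed by family, the effective number of Trav genes was 11.8 in TFH cells and 4.01 in lymphomas, and the inverse Simpson index gave 5.83 in lymphomas. The cause of these shifts was not tested. Motif shares stayed within tolerance with a filter of 100. Since the values are averages with no depth, low averages and single lymphomas with high levels set the limit of what can be read from them.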
